A study of Rattus norvegicus with 10 samples.

Results

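The nuclear-encoded genes of oxidative phosphorylation were drawn from a rat lung RNA-seq table by symbol: every gene whose symbol starts with Nduf, Uqcr or Atp5 or with Cox and a digit between 4 and 8, together with Sdha, Sdhb, Sdhc, Sdhd, Cyc1 and Cycs. That gave 99 of the 22250 genes in the table, under 95 distinct symbols, since 4 symbols each stand for 2 genes on different chromosomes. Of the 99, 92 had enough counts to be tested and 7 did not. None of the 92 passed the test between the groups, and for most of them the interval around the fold change was narrow.

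The series holds 10 libraries from lung tissue, 5 named XBS and 5 named MOD, with totals between 11998979 and 15518929 counts. Its design text describes rats in which neutrophilic asthma was induced with lipopolysaccharide (LPS) and ovalbumin (OVA) and to which a preparation called SP was given, and it asks about the nuclear receptor NR1D1. Neither XBS nor MOD is spelled out in the labels, and neither is tied there to SP, to LPS or to OVA; the sources used here give no strain, age or sex. Nothing states that the libraries came from separate animals, so each p-value measures the spread between libraries, which may be technical. The labels also name 16HBE, a human bronchial epithelial line, but the table has rat gene identifiers. Markers of whole lung were present in every library: the summed level of 10 alveolar type 2 genes spanned 17311 to 34811 CPM (the count set against the scaled total of its library) over the XBS libraries and 25578 to 33112 CPM over the MOD libraries.

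Oxidative phosphorylation takes place in the inner mitochondrial membrane. Complex I (NADH dehydrogenase) and complex II (succinate dehydrogenase) pass electrons to ubiquinone, complex III passes them to cytochrome c, complex IV (cytochrome c oxidase) hands them to oxygen, and complex V (ATP synthase) uses the proton gradient built on the way to make ATP. A handful of subunits are made from the mitochondrial genome. All others are imported as proteins and encoded by nuclear genes, many of which are described here. The transcription factors NRF1, GABPA (a part of NRF-2), YY1 and ESRRA, helped by the coactivator PGC-1alpha (Ppargc1a), are known to act on the promoters of many of them. Several complex IV subunits come in a widely used form and a second form used mainly in some tissues, such as lung, heart or skeletal muscle.

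RefSeq promoter windows (build GRCr8, 250 bases before to 50 after each gene start) were matched by symbol for 81 of these genes. Both strands were searched for core letters of the factors' known motifs, GCATGCG (NRF1), CCGGAAG (GABPA), ATGGCGG (YY1) and AAGGTCA (ESRRA), none of which contains another. The NRF1 letters stood in 14 of the 81 windows (17.3%), against 5.60% of 12007 windows of other tested genes and 3.33% of all 33469 windows. The GABPA letters stood in 21 (25.9%), against 15.4% of other tested genes and 8.75% of all. The YY1 letters stood in 17 (21.0%), against 8.73% and 4.80% of those same sets, and the ESRRA letters in 10 (12.3%), against 3.02% and 4.61%. The windows of these genes had a median GC content of 56.0%, and those of other tested genes 60.0%. A match in letters describes the window and is not a binding site. Some YY1 letters lay after the gene start, as in Uqcrc1, and whether they were part of the coding sequence was not tested.
The 4 stretches below show what such windows look like in a complex III gene, a complex IV gene and 2 complex V genes. Each runs from 130 bases before the gene start through the first 30 bases of the gene, with matched letters in capitals. Where the NRF1 letters stand on both strands at once, the 2 matches overlap and the capitals cover both. The coordinates are chr8:118468093-118468252 on the plus strand for Uqcrc1 (NRF1 letters, then YY1 letters), chr19:65630253-65630412 on the plus strand for Cox4i1 (GABPA letters on the opposite strand, at 2 places), chr7:135678189-135678348 on the minus strand for Atp5mc2 (NRF1 letters) and chr14:1464730-1464889 on the plus strand for Atp5me (NRF1 letters, then GABPA letters on the opposite strand).
Uqcrc1: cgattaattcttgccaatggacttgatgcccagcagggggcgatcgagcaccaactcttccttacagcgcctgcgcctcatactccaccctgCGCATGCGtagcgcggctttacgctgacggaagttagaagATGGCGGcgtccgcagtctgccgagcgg
Cox4i1: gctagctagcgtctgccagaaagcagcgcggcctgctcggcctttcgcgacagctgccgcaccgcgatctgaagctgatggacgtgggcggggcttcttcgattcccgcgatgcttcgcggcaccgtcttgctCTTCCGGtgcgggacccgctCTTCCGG
Atp5mc2: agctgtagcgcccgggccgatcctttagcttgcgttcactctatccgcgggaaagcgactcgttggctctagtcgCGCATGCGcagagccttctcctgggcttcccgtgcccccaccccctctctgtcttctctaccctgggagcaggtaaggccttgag
Atp5me: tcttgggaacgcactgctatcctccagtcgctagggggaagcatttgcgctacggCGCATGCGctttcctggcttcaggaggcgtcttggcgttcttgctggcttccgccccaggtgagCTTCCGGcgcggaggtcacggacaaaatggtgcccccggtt
The log2 fold changes (XBS over MOD) of these genes were -0.15 for Uqcrc1, 0.02 for Cox4i1, 0.11 for Atp5mc2 and -0.16 for Atp5me, and none of the 4 passed the test. Uqcrc1, a core protein of complex III, averaged 116 ± 10.96 CPM in XBS and 129 ± 12.9 CPM in MOD (SD, n = 5 each), and Atp5me, a small membrane subunit of complex V, averaged 15.5 ± 7.27 CPM in XBS and 17.4 ± 6.70 CPM in MOD (SD, n = 5 each).

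Read per length, the most abundant messages were those of widely used subunits. Cox4i1 averaged 359 CPM per kilobase of gene length over the 10 libraries, Atp5f1b, the catalytic beta subunit of ATP synthase, 335, and Cox6a1, the widely used form of a small complex IV subunit, 289. Complex V genes had the highest median level, 126 CPM per kilobase, then complex II with 88.6, complex IV with 78.9, complex III with 72.8 and complex I with 55.8. The 18 complex IV genes include 5 tissue isoforms, whose median was 7.62 CPM per kilobase. These lower the complex IV median, so its rank depends on counting them. The 8 complex I assembly factors (the Ndufaf genes, which help build the complex and do not stay in it) had a median of 7.05 CPM per kilobase. The median over all 14320 tested genes was 11.3 CPM per kilobase.

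**Figure D1:**
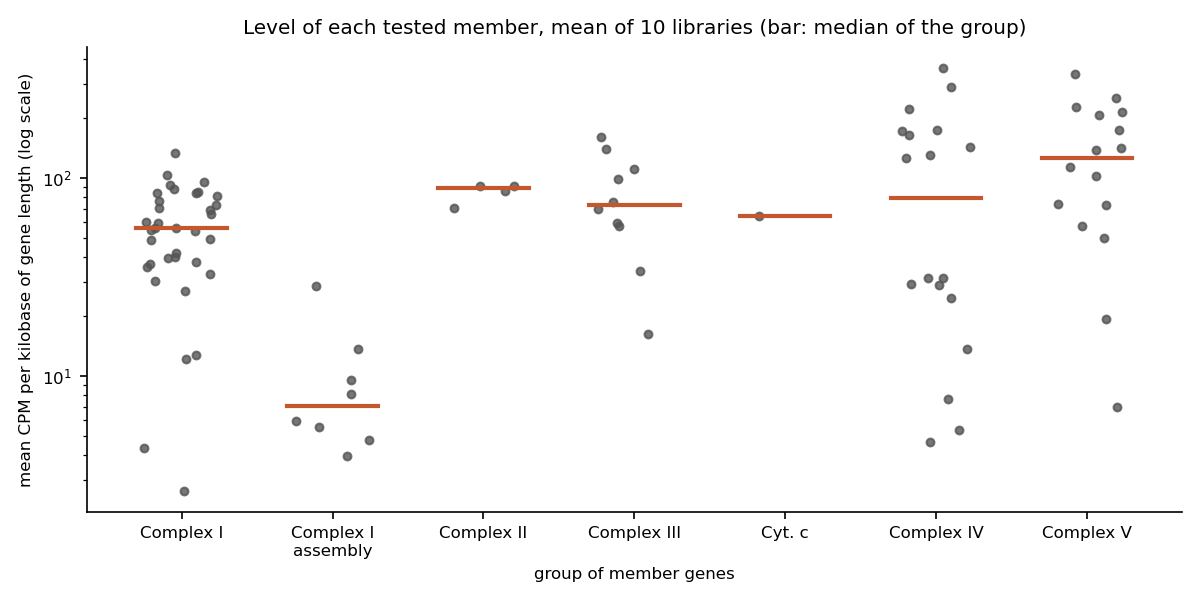
Level of each tested gene as mean CPM per kilobase over 10 libraries (log scale), by complex, with a bar at the median of each group. Complex V sits highest with a median of 126 and the complex I assembly factors lowest with 7.05. Complex IV includes 5 tissue isoforms, whose median was 7.62.

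The comparison asks how the XBS libraries differed from the MOD libraries. Across all genes, 11 of 14320 (0.0768%) had a Benjamini-Hochberg adjusted p below 0.05 in edgeR's quasi-likelihood test, 4 higher and 7 lower in XBS. Of the oxidative phosphorylation genes, 0 of 92 did, and the smallest adjusted p among them was 0.248. DESeq2 called 2.43% of all genes and limma voom 0.468%, and both also called 0 of the 92. At an unadjusted p below 0.05, edgeR had 6 of the 92 and 13.2% of all genes, DESeq2 had 7 and 14.3%, and voom had 11 and 17.7%. In 2.74% of all genes the XBS and MOD libraries did not overlap in CPM, and among the 92 this held for 0.

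The fold changes were small and leaned to one side. The log2 fold change (XBS over MOD) was negative in 64 of the 92 genes (69.6%, against 48.1% of all genes), with a median of -0.09, against 0.01 over all genes. The size of the change was under 1.2-fold in 80 of the 92 (87.0%, against 73.3% of all genes). The 95% interval of the change lay wholly within 1.5-fold in either direction in 70 of the 92 (76.1%, against 60.9% of all genes). A difference of that size would lie outside those 70 intervals, while for the other 22 genes it was not resolved at this spread. The genes share libraries and vary together, so the 64 are not independent. The lean depended on which libraries were used: without XBS 2 and XBS 3 the log2 fold change was negative in 81 genes with a median of -0.17, and without MOD 4 and XBS 5 in 49 genes with a median of -0.01.
Marker lists of lung cell types leaned both ways. The log2 fold change was negative in 10 of 10 tested alveolar type 1 markers (median -0.30) and in 9 of 10 tested endothelial markers (median -0.34), in 6 of 8 club cell markers (median -0.26), in 13 of 14 ciliated cell markers (median -0.18), in 6 of 7 red blood cell markers (median -0.43) and in 8 of 10 alveolar type 2 markers (median -0.03). It was positive in 9 of 10 tested neutrophil markers (median 0.37), 8 of 8 B cell markers (median 0.47) and 8 of 9 T cell markers (median 0.24). It was also positive in 5 of 5 alveolar macrophage markers (median 0.40), 5 of 7 tested heart muscle markers (median 0.17) and 3 of 3 tested skeletal muscle markers (median 0.50). The table held 17 heart and 8 skeletal muscle markers, so these counts cover only part of each list. Summed over all 17, heart muscle levels averaged 184 ± 225 CPM in XBS and 173 ± 146 CPM in MOD (SD, n = 5 each). Of all these markers, Cyp4b1 alone passed. Cyp4b1, a cytochrome P450 on the club cell list, averaged 249 ± 25.7 CPM in XBS and 395 ± 11.2 CPM in MOD (SD, n = 5 each), with a log2 fold change of -0.66, an adjusted p of 0.0104 in edgeR and no overlap between the groups. Summed club cell levels spanned 2646 to 9408 CPM over XBS libraries, lowest in XBS 2 and XBS 3, and 8370 to 12561 CPM over MOD libraries. Summed alveolar type 1 levels spanned 5710 to 8956 CPM over XBS libraries and 8634 to 9985 CPM over MOD libraries, and endothelial levels 3141 to 4734 CPM over XBS libraries and 4350 to 6158 CPM over MOD libraries, with Cldn5, an endothelial junction gene, at 0 in every library. In bulk tissue fewer cells of a type and less RNA per cell cannot be told apart, and the part of cell make-up in the lean was not tested.

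**Figure D2:**
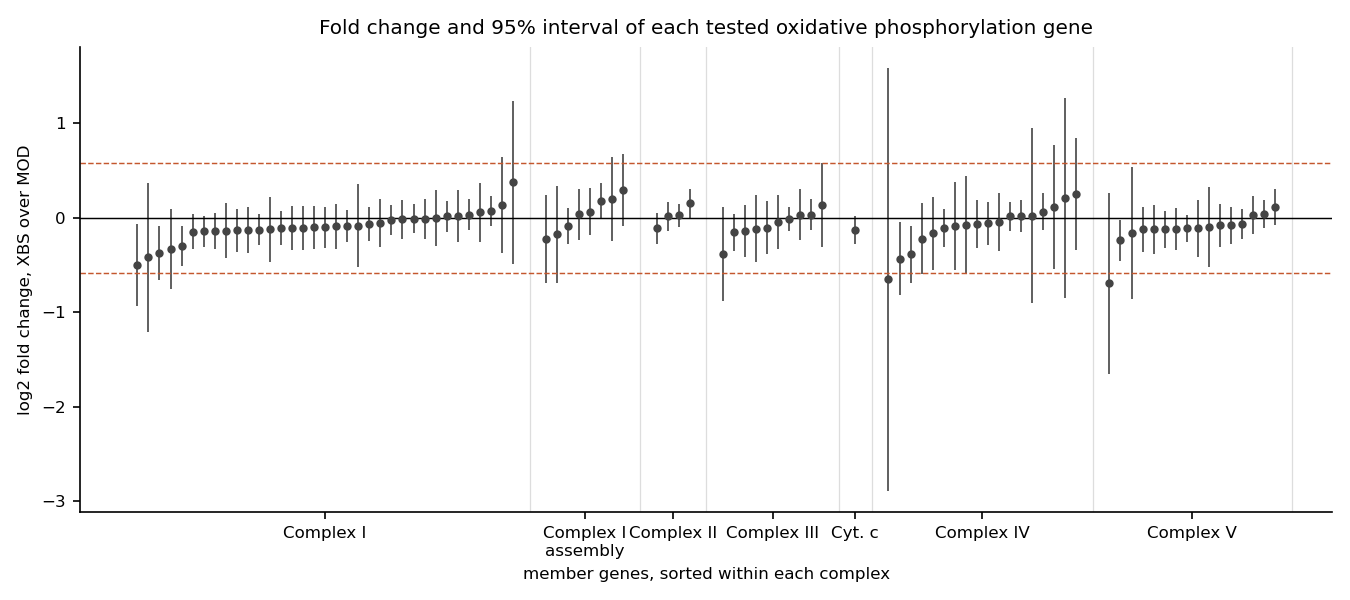
Log2 fold change, XBS over MOD, with its 95% interval for each of the 92 tested genes, sorted within each complex. Most points lie slightly below 0 (median -0.09) and none had an adjusted p below 0.05.

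Complex I, which oxidises NADH, had 35 tested subunit genes, and the log2 fold change was negative in 28 of them with a median of -0.10. The 7 nuclear core subunits, which hold the flavin and the iron-sulphur clusters, had a median of -0.02, and the interval of every one of them lay within 1.5-fold. The 28 accessory subunits, which surround the core, had a median of -0.11, 23 of them negative. Ndufab1, an accessory subunit that doubles as the mitochondrial acyl carrier protein (ENSRNOG00000018129, chr1:192044216-192057612 in the deposited table), had the smallest p of all 92 genes.
Ndufab1 had 26.96, 32.6, 29.1, 28.3 and 29.5 CPM in XBS 1 to 5, against 30.8, 39.7, 34.9, 41.1 and 33.1 CPM in MOD 1 to 5. The lowest values were XBS values and the highest were MOD 4 and MOD 2, but XBS 2 stood above MOD 1, so the groups overlapped. The log2 fold change was -0.29 ± 0.096 (SE, n = 5 each), with an interval of -0.51 to -0.08 and an adjusted p of 0.248 in edgeR.
Ndufb4, an accessory subunit of the membrane arm and the most abundant complex I message per length (134 CPM per kilobase), had 48.1, 58.5, 60.7, 51.2 and 47.4 CPM in XBS 1 to 5, against 54.98, 82.5, 61.02, 83.1 and 62.96 CPM in MOD 1 to 5. MOD 2 and MOD 4 stood well above all other libraries, while MOD 1, MOD 3 and MOD 5 lay near the XBS values. That gave a log2 fold change of -0.37 ± 0.13 (SE, n = 5 each), with an adjusted p of 0.277 in edgeR.
Ndufb6, another accessory subunit of the membrane arm, had 12.7, 18.2, 18.7, 14.4 and 15.1 CPM in XBS 1 to 5, against 16.8, 31.6, 18.5, 27.8 and 17.1 CPM in MOD 1 to 5. The same pair, MOD 2 and MOD 4, was high, and the other MOD values lay inside the XBS range. In edgeR the log2 fold change was -0.50 ± 0.20 (SE, n = 5 each), with an adjusted p of 0.333.
Ndufs5, an accessory subunit, ranged from 22.8 to 50.05 CPM over XBS libraries and 41.2 to 58.6 CPM over MOD libraries, with its lowest value in XBS 5, and had a log2 fold change of -0.33 with an adjusted p of 0.468 in edgeR. Ndufs4, an accessory subunit whose loss causes a severe mitochondrial disease, averaged 50.7 ± 2.12 CPM in XBS and 55.3 ± 4.91 CPM in MOD (SD, n = 5 each). Ndufb7, Ndufb10 and Ndufc2, accessory subunits of the membrane arm, had log2 fold changes of -0.15, -0.14 and -0.14, with adjusted p from 0.434 to 0.498 in edgeR.
The 8 Ndufaf assembly factors showed no clear lean, with a median log2 fold change of 0.05. Of the 8, 3 were negative (37.5%, against 48.1% of all genes). Ndufaf7, a methyltransferase that acts during assembly, had 23.2, 20.7, 25.7, 25.6 and 25.5 CPM in XBS 1 to 5, against 21.9, 21.6, 19.2, 21.9 and 22.1 CPM in MOD 1 to 5. MOD 3 was the lowest library, and XBS 2 lay inside the MOD range, so the groups overlapped. Its log2 fold change was 0.18 ± 0.087 (SE, n = 5 each), with an adjusted p of 0.415 in edgeR. Ndufaf1, which acts early in assembly, averaged 11.7 ± 2.07 CPM in XBS and 9.53 ± 1.89 CPM in MOD (SD, n = 5 each), with an adjusted p of 0.473. Of 10 tested assembly factors with other symbols, 0 passed and 7 had a positive log2 fold change. Foxred1 had the smallest p of these, and it averaged 17.3 ± 2.75 CPM in XBS and 14.4 ± 1.30 CPM in MOD (SD, n = 5 each) with an adjusted p of 0.397 in edgeR.

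Complex II, the only respiratory complex made wholly from nuclear genes and also an enzyme of the tricarboxylic acid cycle, was the steadiest of the 5 complexes, with a median coefficient of variation within groups of 6.80%, against 12.1% for all 92 genes and 15.4% for all tested genes. All 4 intervals lay within 1.5-fold. Sdhc, a membrane anchor, had 109, 114, 116, 104 and 105 CPM in XBS 1 to 5, against 107, 95.1, 107, 86.9 and 98.3 CPM in MOD 1 to 5. XBS 1 to 3 lay above every MOD library, XBS 4 and XBS 5 lay within the MOD range, and MOD 4 and MOD 2 were lowest. For Sdhc the log2 fold change was 0.15 ± 0.071 (SE, n = 5 each), with an adjusted p of 0.388 in edgeR. Sdha, the flavoprotein that oxidises succinate, averaged 189 ± 13.8 CPM in XBS and 204 ± 16.3 CPM in MOD (SD, n = 5 each). Sdhb, the iron-sulphur subunit, averaged 69.5 ± 3.71 CPM in XBS and 68.3 ± 2.03 CPM in MOD and had the lowest coefficient of variation of all 92 genes, 4.34%. Sdhd, the other anchor, averaged 112 ± 9.35 CPM in XBS and 111 ± 5.16 CPM in MOD, with its highest value in XBS 3.

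In complex III the log2 fold change was negative in 7 of 10 genes, with a median of -0.07. Cyc1, the cytochrome c1 that hands electrons on, had 68.05, 77.4, 67.7, 62.7 and 69.7 CPM in XBS 1 to 5, against 70.5, 63.4, 63.7, 75.7 and 64.2 CPM in MOD 1 to 5. High and low libraries were mixed over both groups, and the log2 fold change was 0.03 ± 0.076 (SE, n = 5 each), with an adjusted p of 0.868 in edgeR. Uqcrc1 had a log2 fold change of -0.15 and an adjusted p of 0.462. Uqcrh, the hinge protein and the most abundant complex III message per length (161 CPM per kilobase), ranged from 70.7 to 116 CPM over XBS libraries and 80.2 to 97.4 CPM over MOD libraries.
The symbol Uqcrb, the ubiquinone-binding subunit, stands for 2 genes. The one on chromosome 1, whose 475-base length equals its span in the table, had 27.5, 40.9, 29.2, 21.8 and 23.9 CPM in XBS 1 to 5, against 28.5, 52.4, 29.3, 48.5 and 28.3 CPM in MOD 1 to 5. MOD 2, MOD 4 and XBS 2 were high and the remaining libraries were close together. Its log2 fold change was -0.38 ± 0.23 (SE, n = 5 each; adjusted p 0.472 in edgeR), while that of the copy on chromosome 7 was 0.03. The counting could have split reads between such copies, so both values are uncertain, as are those of Ndufv3, Cox6b1 and Ndufa10l1, the other symbols with 2 genes.
Cycs, cytochrome c, the mobile carrier between complexes III and IV that also triggers apoptosis when it leaves the mitochondrion, had 69.8, 71.2, 78.6, 68.4 and 80.8 CPM in XBS 1 to 5, against 79.6, 79.4, 82.2, 86.8 and 76.3 CPM in MOD 1 to 5. XBS 1, XBS 2 and XBS 4 lay below every MOD library, while XBS 3 and XBS 5 lay within the MOD range. The log2 fold change of Cycs was -0.13 ± 0.067 (SE, n = 5 each), with an adjusted p of 0.422 in edgeR.

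Complex IV, the oxygen-consuming enzyme, had 18 tested genes, 11 with a negative log2 fold change, and a median of -0.06. Cox4i1, the widely used form of its regulatory subunit 4, had 263, 302, 277, 242 and 235 CPM in XBS 1 to 5, against 257, 259.7, 247, 269.6 and 272 CPM in MOD 1 to 5. XBS 2 was highest and XBS 5 lowest, with all MOD values between them, and the log2 fold change was 0.02 ± 0.077 (SE, n = 5 each), with an adjusted p of 0.944 in edgeR. Cox6a1, Cox6b1 on chromosome 1 and Cox8a, the widely used forms of 3 smaller subunits, had log2 fold changes of -0.06, -0.11 and -0.05. Cox7a2l, which joins complexes III and IV into respirasomes, averaged 181 ± 23.8 CPM in XBS and 173 ± 9.76 CPM in MOD (SD, n = 5 each). Ndufa4, first assigned to complex I and now counted with complex IV, averaged 23.9 ± 8.83 CPM in XBS and 25.2 ± 6.15 CPM in MOD, with its highest value in XBS 2.

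Cox4i2 is the form of subunit 4 that is prominent in lung and takes part in acute oxygen sensing. It had 15.7, 27.7, 24.8, 24.5 and 21.01 CPM in XBS 1 to 5, against 29.5, 33.2, 27.4, 31.04 and 27.9 CPM in MOD 1 to 5. XBS 1 was far lowest, and of the XBS libraries XBS 2 alone stood just above MOD 3, the lowest MOD library, so the groups overlapped slightly. Its log2 fold change was -0.39 ± 0.14 (SE, n = 5 each), with an adjusted p of 0.287 in edgeR.
Set against Cox4i1 in the same library, which takes library scaling out, the Cox4i2 count was 5.97, 9.16, 8.98, 10.1 and 8.94% of the Cox4i1 count in XBS 1 to 5, against 11.5, 12.8, 11.1, 11.5 and 10.3% in MOD 1 to 5. Every XBS library lay below every MOD library, by a narrow gap between XBS 4 and MOD 5. The log2 ratio, with 2 counts added to each gene, averaged -3.55 ± 0.29 in XBS and -3.13 ± 0.11 in MOD (SD, n = 5 each), a difference of -0.42. An exact two-sided permutation test over the 252 assignments of libraries to groups gave p = 0.00794, the smallest that 5 against 5 allow, and 0.0397 after Benjamini-Hochberg adjustment over 5 isoform pairs. The difference stayed between -0.48 and -0.29 when single libraries were left out. In 6 of those 10 omissions, that of XBS 1 (-0.29) and those of each MOD library, the exact permutation p was 0.0159 and the adjusted value 0.0794, above the threshold.
In mouse lung Cox4i2 and Ndufa4l2 are known as messages of mural cells, the pericytes and smooth muscle of vessels. All 14 smooth muscle and pericyte markers were detected, 0 of 14 passed the test, and their summed CPM spanned 2078 to 4753 over XBS libraries and 1806 to 3054 over MOD libraries. Of the 14, 9 had a positive and 5 a negative log2 fold change, with a median of 0.15. The values ran from -0.44 for Higd1b, a pericyte marker (adjusted p 0.295 in edgeR), to 0.43 for Cnn1, a smooth muscle marker (adjusted p 0.623 in edgeR). Within each library, the ratio of Cox4i2 to Higd1b counts averaged 0.900 ± 0.072 in XBS and 0.881 ± 0.108 in MOD (SD, n = 5 each). That of Ndufa4l2 to Higd1b averaged 0.925 ± 0.155 in XBS and 0.938 ± 0.143 in MOD. Both ratios overlapped between the groups. Higd1b was the marker with the most negative log2 fold change of the 14. Ratios to the other markers were not taken, so both ratios describe Higd1b alone. The part of mural cells in the Cox4i2 ratio was not tested.
Ndufa4l2, the hypoxia-responsive relative of Ndufa4, had 14.3, 31.4, 27.1, 22.3 and 22.5 CPM in XBS 1 to 5, against 34.5, 32.2, 29.8, 35.7 and 26.6 CPM in MOD 1 to 5. XBS 1 was again far lowest and MOD 4 and MOD 1 highest, with an overlap in the middle, and the log2 fold change was -0.43 ± 0.18 (SE, n = 5 each; adjusted p 0.346 in edgeR). Its log2 ratio to Ndufa4 differed by -0.36 (exact permutation p = 0.111, adjusted over the 5 pairs 0.278).
The remaining pairs set a heart, muscle or testis form against the widely used one. Cox6a2, the heart and muscle form of subunit 6a, had 0.411, 0.296, 0.404, 1.14 and 6.38 CPM in XBS 1 to 5, against 1.86, 0.937, 0.293, 9.17 and 1.27 CPM in MOD 1 to 5. MOD 4 and XBS 5 stood far above the other 8 libraries, and the within-group coefficient of variation, 144%, was the highest of all 92 genes. In the same 2 libraries the heart muscle markers, 17 of 18 listed genes present in the table, summed to 583 CPM in XBS 5 and 434 CPM in MOD 4, against 47.8 to 129 CPM in XBS 1 to 4 and 95.2 to 117 CPM in the other MOD libraries. None of the 7 that could be tested passed, and the ventricular marker Myl2 had 0 counts in every XBS library and at most 3 in MOD. Among those not tested, Myh6 and Myl7 had 898 and 709 counts in XBS 5, against 1422 and 788 in MOD 4. In MOD 1 they had 179 and 186 counts, and in every remaining library each had at most 66. The part of heart muscle in the Cox6a2 values was not tested. The edgeR log2 fold change was -0.65 (adjusted p 0.809), but -2.23 without XBS 5 and 0.66 without MOD 4. The Cox6a2 to Cox6a1 log2 ratio differed by -0.64 (exact permutation p = 0.548).
Cox8b, the heart and muscle form of subunit 8, had 2.96, 2.44, 1.28, 0.822 and 1.65 CPM in XBS 1 to 5, against 0.573, 2.09, 1.32, 3.06 and 0.779 CPM in MOD 1 to 5. It was highest in MOD 4 and XBS 1, with XBS 5 in the middle, and its log2 ratio to Cox8a differed by 0.37 (exact permutation p = 0.405). Cox6b2, known from testis, averaged 3.90 ± 1.51 CPM in XBS and 3.27 ± 0.673 CPM in MOD (SD, n = 5 each), and its log2 ratio to Cox6b1 differed by 0.31 (exact permutation p = 0.230).

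**Figure D3:**
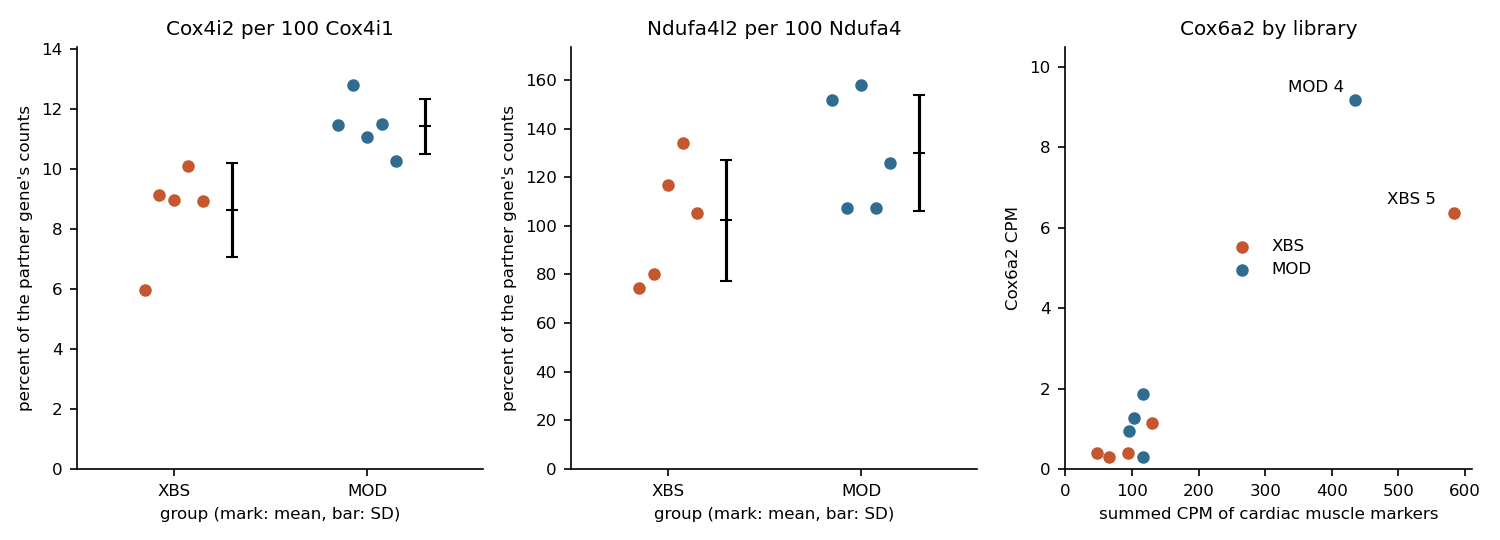
Counts of Cox4i2 and Ndufa4l2 as a percentage of those of Cox4i1 and Ndufa4 by library (marks are means, bars SD), and Cox6a2 CPM against the summed CPM of heart muscle markers. The Cox4i2 percentages are 5.97 to 10.1 in XBS and 10.3 to 12.8 in MOD, and XBS 5 and MOD 4 stand apart in the Cox6a2 panel.

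Complex V had 16 tested genes, 13 with a negative log2 fold change, and a median of -0.11. Atp5f1b had 516, 522, 659, 606 and 586 CPM in XBS 1 to 5, against 527, 618, 609, 661 and 637 CPM in MOD 1 to 5. XBS 1, XBS 2 and MOD 1 were lowest and XBS 3 and MOD 4 highest, and the log2 fold change was -0.08 ± 0.090 (SE, n = 5 each), with an interval of -0.28 to 0.12 and an adjusted p of 0.719 in edgeR. Atp5f1d, the delta subunit of the rotor, averaged 119 ± 9.68 CPM in XBS and 128 ± 4.43 CPM in MOD (SD, n = 5 each).
Atp5if1, the inhibitor that stops ATP synthase from running backwards and burning ATP when respiration fails, had 45.4, 55.2, 51.2, 45.5 and 45.6 CPM in XBS 1 to 5, against 50.96, 66.3, 50.99, 64.8 and 53.8 CPM in MOD 1 to 5. MOD 2 and MOD 4 were highest, and XBS 2 and XBS 3 lay within the MOD range. For Atp5if1 the log2 fold change was -0.24 ± 0.10 (SE, n = 5 each), with an adjusted p of 0.353 in edgeR.
The gene listed as Atp5md, the symbol of a small membrane subunit, had low levels. Its log2 fold change, -0.69 ± 0.44 (SE, n = 5 each, adjusted p 0.496 in edgeR), was the largest negative one of the 92. As with Uqcrb on chromosome 1, Ndufv3 on chromosome 13 and Cox6b1 on chromosome 2, its 308-base length equals its span in the table. Whether it is the gene of the subunit or a copy was not tested. It had 1.31, 3.11, 1.82, 0.886 and 1.08 CPM in XBS 1 to 5, against 1.65, 4.25, 1.54, 4.19 and 1.63 CPM in MOD 1 to 5. MOD 2, MOD 4 and XBS 2 were high and all other libraries were under 2 CPM.

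The 7 genes that were not tested had few or no counts. Cox6c-ps1, Cox7b2 and the copy of Ndufa10l1 on chromosome 6 had 0 counts in every library, which allows at most 3 counts or 0.193 to 0.250 CPM by library. Cox8c, known from testis, had 4 counts in XBS 1 and 0 elsewhere. Cox7a1, the heart and muscle form of subunit 7a, had 2 to 6 counts in XBS and 4 to 8 in MOD, and neither XBS 5 nor MOD 4 stood out. Its partner Cox7a2 was not found under that symbol in the table.
Of the 7, Ndufa1 and Atp5pb encode subunits that every copy of their complex needs, yet Ndufa1 had 0 to 3 counts and Atp5pb 3 to 16. The table also holds genes annotated as like them: LOC108348144 (an NDUFA1 entry) with 0 to 5 counts and LOC100911417 (an ATP synthase subunit b entry, 2063 bases long as Atp5pb is) with 9 to 78. Reads that match both entries could have been left out of the counts, so these values are uncertain.

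The groups differed by less than the spread between libraries in the common level of the 92 genes. The mean of their log2 CPM, each gene centred on its own mean, was -0.10, 0.15, 0.02, -0.19 and -0.10 in XBS 1 to 5, against -0.09, 0.16, -0.07, 0.24 and -0.03 in MOD 1 to 5. MOD 4, MOD 2 and XBS 2 were high and XBS 4 was lowest, so each group held libraries on either side. The mean over libraries was -0.04 ± 0.13 in XBS and 0.04 ± 0.15 in MOD (SD, n = 5 each). MOD 4 was the highest library for 32 of the 92 genes, XBS 2 for 27 and MOD 2 for 15, and XBS 4 was the lowest for 31.
Part of the height of those libraries went with gene length. The 92 genes are short, with a median length of 728.5 bases against 2375 for all tested genes. Among the 37 genes under 600 bases, the median centred log2 CPM was 0.32 in XBS 2 and -0.29 in XBS 4, against 0.24 in MOD 2 and 0.24 in MOD 4. Among the 23 genes of 1200 bases or more it was -0.13 in XBS 2 and 0.02 in XBS 4, against 0.06 in MOD 2 and 0.15 in MOD 4, so XBS 2 was high for short genes and low for long ones.
Other tested genes under 600 bases, 524 in number, differed in the same libraries by less: 0.15 in XBS 2 and -0.14 in XBS 4, against 0.06 in MOD 2 and 0.10 in MOD 4. The 73 genes of the cytosolic ribosome, also mostly short, were high in XBS 2 (0.44) and not in MOD 4 (-0.11) or MOD 2 (-0.09). Cell markers differed in these libraries as well. The mean centred log2 level of 10 endothelial markers was -0.06 in XBS 2, against 0.37 in MOD 2 and 0.40 in MOD 4, that of 10 neutrophil markers was 1.02 in XBS 2, against -0.12 in MOD 2 and 0.70 in MOD 4, and ciliated cell markers were low in XBS 2 (-1.74) and XBS 3 (-1.77). None of the endothelial, neutrophil or ciliated markers passed the test, and the part of RNA length or cell make-up in the pattern was not tested.

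**Figure D4:**
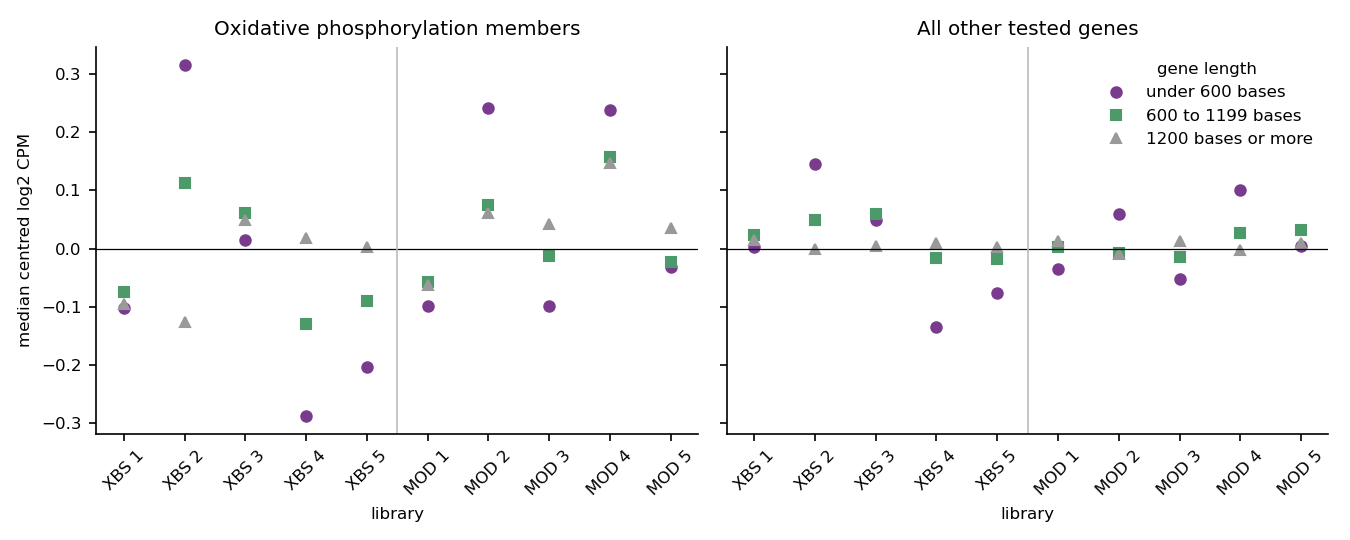
Median centred log2 CPM by library for 3 classes of gene length, among the oxidative phosphorylation genes and among all other tested genes. XBS 2, MOD 2 and MOD 4 stand above the others for members under 600 bases (0.32, 0.24 and 0.24), with smaller differences in other short genes.

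**Figure D5:**
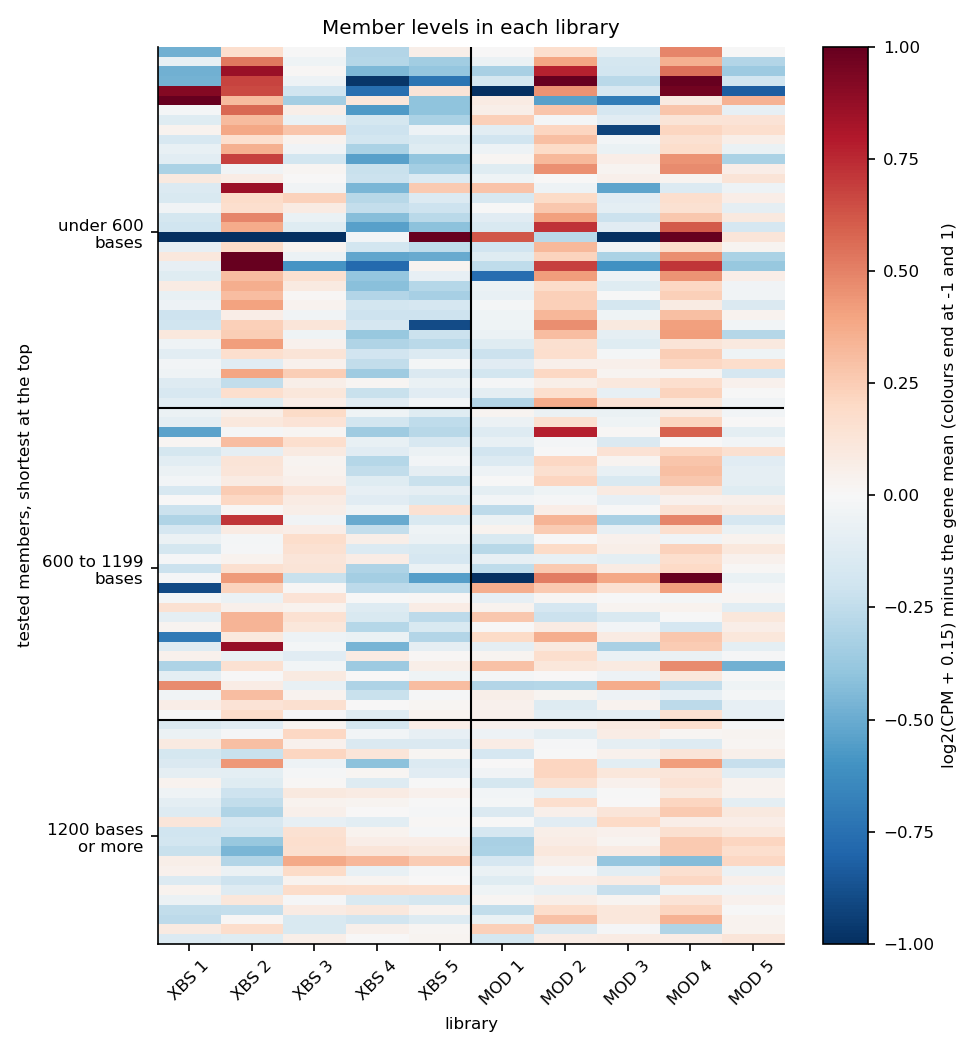
Level of each tested gene in each library as log2(CPM + 0.15) minus the gene's mean, shortest gene at the top, colours ending at -1 and 1. The columns of XBS 2, MOD 2 and MOD 4 are high over the short genes, and XBS 4 is low.

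In sum of levels the 99 genes took 0.592 to 0.663% of the counts in XBS and 0.587 to 0.694% in MOD. The mitochondrial genome's own messages, which supply the subunits not encoded in the nucleus, took 3.11 to 3.70% in XBS and 2.74 to 3.27% in MOD. Of their 12 tested genes 0 passed and 11 had a positive log2 fold change. The median was 0.09, against -0.09 for the nuclear genes. These messages share libraries too, so the 11 are not independent. Their mean centred log2 level spanned -0.06 to 0.19 over XBS libraries and -0.15 to 0.19 over MOD libraries, so the groups overlapped. Mt-atp6, a membrane subunit of ATP synthase, averaged 2684 ± 543 CPM in XBS and 2146 ± 245 CPM in MOD (SD, n = 5 each), with an adjusted p of 0.362 in edgeR. Mt-nd4l, a short complex I subunit, was the exception in sign and had 97.2, 118, 91.05, 68.4 and 89.00 CPM in XBS 1 to 5, against 80.6, 264, 104, 226 and 123 CPM in MOD 1 to 5. MOD 2 and MOD 4 were far above the rest. The short nuclear genes were high in these 2 libraries and also in XBS 2, where Mt-nd4l had 118 CPM, below MOD 5. The log2 fold change of Mt-nd4l was -0.78 ± 0.31 (SE, n = 5 each, adjusted p 0.334 in edgeR).
No gene of the related lists passed the test either. Of 16 regulators of mitochondrial biogenesis and of mitochondrial genome expression 9 had a positive and 7 a negative log2 fold change. Ppargc1a had 3.29, 2.67, 2.96, 4.24 and 4.95 CPM in XBS 1 to 5, against 3.30, 5.12, 5.41, 6.78 and 4.46 CPM in MOD 1 to 5, with a log2 fold change of -0.47 ± 0.24 (SE, n = 5 each; adjusted p 0.425 in edgeR) and overlapping groups. Tfb2m, a mitochondrial transcription factor, averaged 16.4 ± 4.35 CPM in XBS and 11.6 ± 2.60 CPM in MOD, and Gabpb1, the partner of GABPA, 46.8 ± 4.89 CPM in XBS and 41.2 ± 1.99 CPM in MOD (SD, n = 5 each). The log2 fold changes of Nrf1, Gabpa, Esrra, Tfam and Ppargc1b lay between -0.08 and 0.07.
Among 32 assembly factors of complexes II to V, 18 had a positive and 14 a negative log2 fold change. Cox11, which inserts copper into complex IV, averaged 11.01 ± 1.71 CPM in XBS and 14.2 ± 1.01 CPM in MOD (SD, n = 5 each; adjusted p 0.265 in edgeR), and Sdhaf4, which helps Sdha join complex II, averaged 14.1 ± 1.30 CPM in XBS and 17.5 ± 2.55 CPM in MOD (adjusted p 0.316 in edgeR). The 17 genes of the tricarboxylic acid cycle and pyruvate dehydrogenase had a median log2 fold change of -0.01, with Pdha1 and Sucla2 of smallest p (adjusted 0.429 and 0.461 in edgeR). The 8 nucleotide and proton carriers and the 15 glycolysis genes had medians of -0.003 and -0.002, with Ucp3 and Vdac2, and Pfkl and Hk1, of smallest p (adjusted 0.605, 0.605, 0.501 and 0.530 in edgeR).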

How the data were processed

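RNA-seq was made from 10 rat lung libraries, grouped and numbered by their titles. Per the labels' protocols, RNA was isolated with Trizol, and messenger RNA was purified, fragmented, ligated to adapters and amplified by PCR. Builds listed in the submitters' processing notes are human and mouse (hg38, GRCh38 and mm10), while the deposited table has rat gene identifiers, and the sources used here do not name the aligner, counter, strand setting or rat build. Without strand, reads of overlapping or antisense genes cannot be told apart.

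Per the file headers, the authors deposited read counts and FPKM values per gene and library. The deposited counts are whole numbers with library totals of 11998979 to 15518929 and were used as they stand, and the deposited FPKM values were left out. Genes passing filterByExpr (minimum count 10, minimum total 15) in edgeR 4.0.16 (R 4.3.3), 14320 in all, were scaled by TMM and tested with the robust quasi-likelihood test, p-values adjusted by Benjamini-Hochberg over all of them, threshold 0.05. CPM values use the TMM-scaled totals. Within-gene centring used log2 CPM with a prior count of 2. Isoform ratios were tested by exact permutation. The fits were tested on simulated data. Alternatives were DESeq2 1.42.0, limma 3.58.1 (voom with sample weights), other scalings, filters, thresholds and prior counts, a replicate block and omitted libraries. Within-group pairs of libraries differed by more than sampling noise (chi-square per degree of freedom 9.46 to 59.4), so all were counted. Intervals cover the spread between libraries, and the limit from 3 counts covers counting error only.

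Named genes were the 20 of smallest p, all of complex II, Cyc1, Cycs, the most abundant per length of each other complex, the isoform pairs, Atp5if1, Cox7a2l, 6 regulators and the 2 of smallest p in each mitochondrial or metabolic list; other genes are named as examples after their values were seen. The members and lists were chosen with earlier results of these data known. Promoters are RefSeq, build GRCr8, and gene positions are as the deposited table gives them.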

Additional observations from a re-analysis of the deposited data

Results flagged for a closer look

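In 198 groups of 5 values (92 genes, 5 isoform ratios, the summed level and the mean centred level, each in both library groups), 12 had a highest or lowest library whose gap to the next was over 0.710 of the group's range, Dixon's 95% limit. Chance alone gives about 5% of groups. XBS 2 held 6 of the 12, each as the highest XBS library: Ndufa3 at 19.0 CPM, Ndufb5 at 23.2 CPM, Ndufaf8 at 20.2 CPM, Cox7a2l2 at 29.2 CPM, Cox7b at 14.3 CPM and Atp5me at 28.1 CPM. The next XBS values were 12.8, 12.5, 11.6, 15.3, 5.95 and 15.6 CPM.

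Cox6a2 stood apart in both groups, at 6.38 CPM in XBS 5 and at 9.17 CPM in MOD 4. Sdhd was high in XBS 3 at 128 CPM, against 110 CPM in the next XBS library. The Cox4i2 to Cox4i1 log2 ratio was lowest in XBS 1 at -4.05, against -3.47 in the next. Ndufaf7 was lowest in MOD 3 at 19.2 CPM and Atp5f1c, the gamma subunit of ATP synthase, in MOD 1 at 126 CPM, against 21.6 and 150.1 CPM in the next MOD libraries.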

How the results depend on the processing

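The count of oxidative phosphorylation genes called was 0 under each alternative run, and their median log2 fold change stayed between -0.17 and -0.01. The count of all genes called by edgeR, 11, was 348 with DESeq2, 67 with limma voom, 67 at an adjusted p below 0.1, 1 with the replicate block, 3 without XBS 2 and XBS 3, 0 without MOD 4 and XBS 5 (1340 at an unadjusted p below 0.05), and 4 to 15 with single libraries left out. The Cox4i2 to Cox4i1 difference of -0.42 stayed negative throughout, and its adjusted p passed 0.05 in the main setting, with other prior counts and in 4 of 10 single omissions. It was -0.48 without XBS 2 and XBS 3 (exact permutation p 0.0179, adjusted 0.0893). Without MOD 4 and XBS 5, an omission added after seeing the data, it was -0.43 (exact permutation p 0.0286, adjusted 0.143). Both unadjusted p-values are the smallest 3 against 5 and 4 against 4 libraries allow, so they cannot tell a weaker difference from fewer libraries. With the replicate block the difference was -0.42 (exact sign-flip p 0.0625, the smallest 5 pairs allow). Single omissions gave -0.48 to -0.29. The Cox6a2 to Cox6a1 difference was 0.19 without XBS 2 and XBS 3. Same-numbered libraries had correlations of 0.329, 0.215, -0.125, 0.0915 and 0.201, so the numbers were not taken to pair them.

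Of the 34 named genes, 22 kept their sign in all settings and 12 did not, and none passed the threshold in any. Without MOD 4 and XBS 5 the log2 fold change was 0.024 for Cox6a1, 0.081 for Ndufa4, 0.041 for Uqcrh and 0.058 for Cox8a. Without XBS 2 and XBS 3 it was -0.036 for Cox7a2l, -0.016 for Cyc1, -0.081 for Cox4i1, -0.052 for Sdhd, -0.011 for Cox6b2 and -0.059 for Esrra. With voom it was -0.040 for Cox8b, -0.00079 for Cox4i1 and -0.0035 for Sdhd. Single omissions gave -0.0078 to 0.11 for Cox7a2l, -0.33 to 0.044 for Ndufa4, -0.011 to 0.042 for Sdhb, -0.010 to 0.078 for Cyc1, -0.17 to 0.023 for Uqcrh, -0.024 to 0.61 for Cox8b, -0.038 to 0.055 for Cox4i1, -2.23 to 0.66 for Cox6a2, -0.16 to 0.038 for Cox8a, -0.041 to 0.036 for Sdhd, -0.22 to 0.019 for Ppargc1b, -0.043 to 0.12 for Esrra and -0.074 to 0.017 for Nrf1. The cause was not tested.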
